A study of Danio rerio with 8 samples.

Results

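The genes described here encode the enzymes of glycolysis, their isoforms, and the enzymes that stand at its exit and on its return path, gluconeogenesis. They were taken from the zebrafish gene table by their symbols: hexokinases 1 and 2 and glucokinase, glucose-6-phosphate isomerase, phosphofructokinase, the PFKFB enzymes that make and remove fructose 2,6-bisphosphate, aldolase, the enzymes from triosephosphate isomerase to pyruvate kinase, lactate dehydrogenase, pyruvate dehydrogenase E1 with its kinases, fructose-1,6-bisphosphatase and phosphoenolpyruvate carboxykinase. The match found 58 genes of the 32520 in the table, each with a single row. Among them, pkmyt1 and pgam5 were taken by the first letters of their symbols and are not enzymes of glycolysis. The gene ldhd encodes a D-lactate dehydrogenase, and eno4 is a distant relative of the other enolases.

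Whole embryos of the AB strain were kept in E3 medium with 0.5% DMSO (control) or with KT09, the ethanolic extract of Mahonia bealei, at 100 µg/ml (treated), from 2 hpf (hours post fertilization) to 8 hpf, with 25 embryos per well of 6-well plates. The series description and the study's results give 8 hpf for the collection, while its discussion names a later hour. The labels name no DMSO content for the treated medium, while the study's methods have the extracts dissolved in DMSO before dilution. RNA came from 4 control and 4 treated pools of 75 embryos, yolk included, and the study asked which genes respond at the time when the extract first alters the shape of the embryo. The table gives the authors' mean over each group of read counts divided by size factors, here called the normalised reads of a gene, and no value per pool was used.

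Glycolysis splits a glucose molecule into a pair of pyruvate molecules in a fixed series of reactions. Most of these run in either direction, while hexokinase, phosphofructokinase and pyruvate kinase are the steps that commit carbon to the forward path, and gluconeogenesis passes around them with enzymes of its own. Zebrafish carry several genes for most of the enzymes, some inherited by all vertebrates with different tissue preferences and some duplicated again in the fish lineage. In the early embryo the yolk is the store of nutrients, and part of the RNA was laid down in the egg.

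Because only group means were available, no SD, test or p-value can be given, and a difference cannot be set against the spread between pools. Each ratio of treated to control carries a 95% Clopper-Pearson interval that covers counting error only, computed from the fewest reads that a group mean allows, so it is too narrow wherever the pools varied beyond counting. Relative library depth spanned 0.820 to 1.14 among control pools and 0.980 to 1.16 among treated pools. Ratios were read for genes with a mean of 10 or more over all pools, and the fold of 1.5 that the study used as its threshold marks a gene as higher or lower below. The library names in the labels of replicate 4 of both groups resemble those of the other group, while the titles and treatment fields give the grouping used in the table. With 1 of 4 pools exchanged in each group, a ratio of the group means could not exceed 3 if pools of a group were alike, yet among 9714 genes at a mean of at least 100, 78 lay above 3-fold in treated and 111 above 3-fold in control embryos.

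The study describes slowed epiboly at this dose, so treatment and developmental stage cannot be told apart. Of the 11 gastrula markers with a mean of 10 or more, 4 were higher in treated embryos, among them tbxta, the mesodermal T-box factor (5375 in control, 9804 in treated, 1.82-fold) and vent, a ventral repressor (1670 and 2777, 1.66-fold), and 0 were lower. Of all 15886 genes compared, 14.1% were higher and 15.5% lower, to be set beside this and the marker counts below. Within 1.5-fold, cyt1 (12882 and 10198), chrd (4980 and 4527) and sox17 (843 and 720) had ratios below 1. The ratios of krt4, vox, bmp2b and gsc lay between 1 and 1.5. The summed reads of all 12 listed markers were 93640 in control and 103590 in treated embryos, mostly those of krt4 (54489 and 56593). Genes listed as markers of differentiated tissues were at mixed levels. Of the erythroid genes, 0 of 5 reached a mean of 10. Of the 6 genes listed for liver, apoa1b was at 16900 in control and 14902 in treated embryos, tfa at 6350 and 5237, and fabp10a at 0.437 and 0.669. The liver sum below comes mostly from apoa1b and tfa, and the cells that hold these reads were not identified. Past 1.5-fold, 1 of 6 muscle genes was higher and 0 were lower (summed reads of all listed genes 308 in control and 302 in treated), 0 of 3 liver genes were higher and 1 was lower (sums 23839 and 20505), and 0 of 5 neuron genes were higher and 2 were lower (sums 1611 and 937). The neuron sum was mostly tubb5 (1435 in control, 821 in treated). Of the other neuron genes, elavl3 (129 and 57.4) and snap25a (13.9 and 10.7) had ratios below 1. The genes syt1a (14.6 and 20.3), gap43 (13.7 and 20.0) and snap25b (4.48 and 7.57) had ratios above 1. The counting intervals of all neuron genes but tubb5 and elavl3 held 1. The part of stage or cell makeup in the values below was not tested.

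Of the 58 genes, 38 had a mean of 10 or more, 25 a mean of 100 or more and 8 a mean of 1000 or more. Among these 38, 9 (23.7%) were higher in treated embryos past 1.5-fold, where 14.1% of all 15886 genes compared were, and 4 (10.5%) were lower, where 15.5% of all genes were. The higher genes were eno1a, pklr, ldhd, tpi1b, pfkfb3, pkma, pgam1b, pgk1 and aldocb, and the lower genes were hk2, pfkpb, pfkfb4b and pgam5. The other 25 genes stayed within 1.5-fold. The ratio was above 1 in 24 genes and below 1 in 14, and the median log2 ratio was 0.19 against 0.0055 for all genes of the same minimum mean. The counting interval lay wholly above 1 for 20 genes, wholly below 1 for 9, and held 1 for the remaining 9. Neither these interval counts nor the counts of ratios above and below 1 were made over all genes. They therefore do not set the matched genes apart from other genes. In these bulk samples, more cells of a type and more RNA per cell cannot be told apart.

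**Figure D1:**
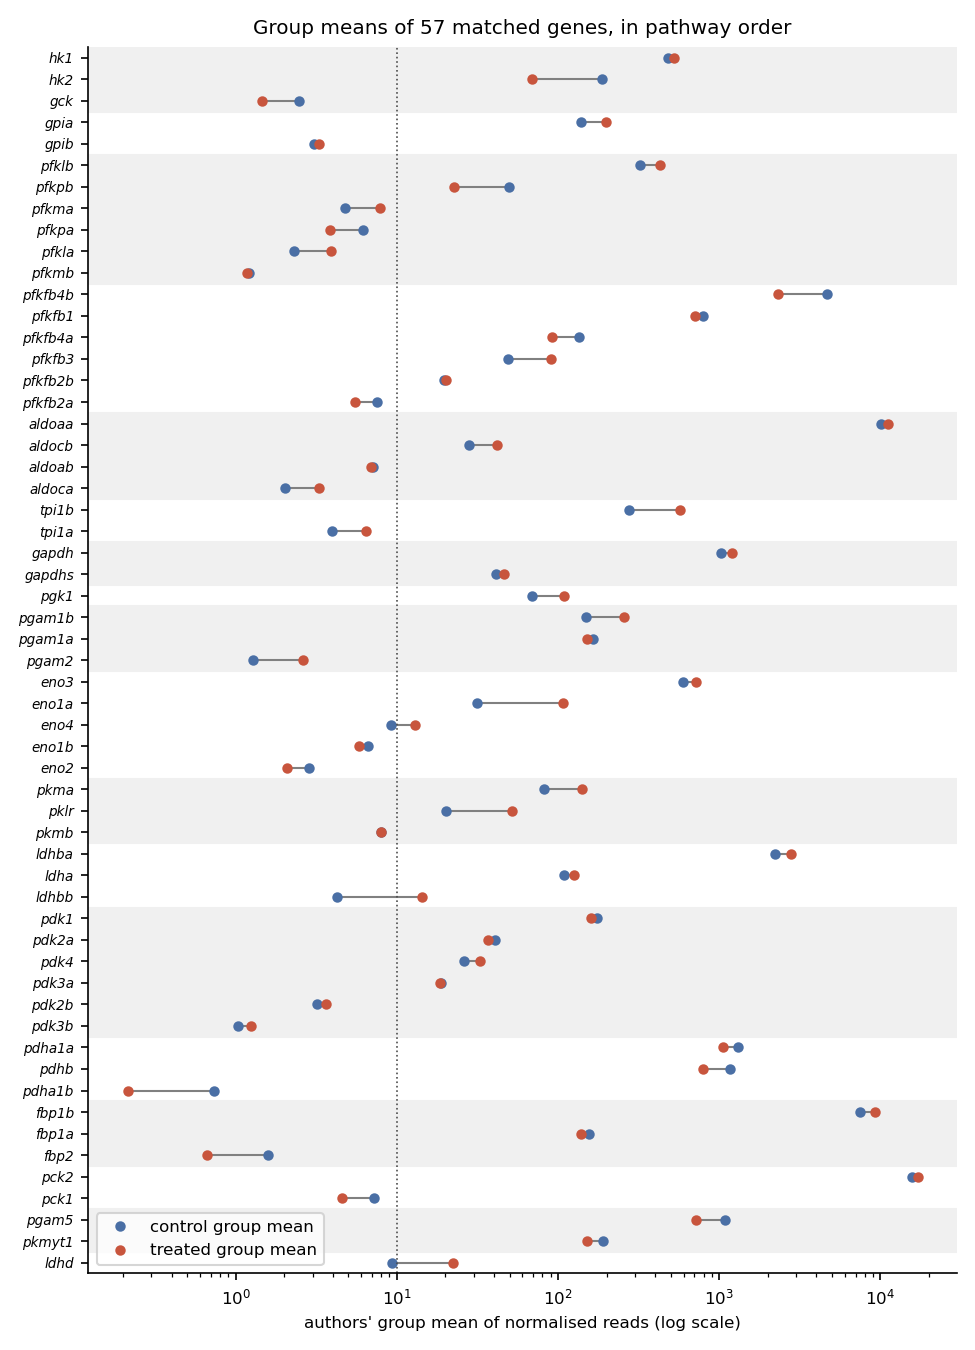
Normalised reads (log scale) of 57 matched genes in pathway order from hexokinase at the top, with the control group mean in blue, the treated group mean in red and the mean of 10 as a dotted line. Shading separates the enzymes, and the means run from under 1 for pdha1b to 15793 in control and 16972 in treated embryos for pck2, with 20 genes under a mean of 10.

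The share past 1.5-fold depended on the level. Of the 13 matched genes with a mean from 10 to 100, 6 were higher and 1 was lower, in a range where 21.2% of all genes were higher and 23.9% lower. Of the 17 genes from 100 to 1000, 3 were higher and 2 lower (10.3% and 12.6% of all genes). Of the 8 genes at 1000 or more, 0 were higher and 1, pfkfb4b, was lower (8.05% and 5.06% of all genes). The most abundant enzymes thus stayed within 1.5-fold apart from pfkfb4b, and the ratios furthest above 1 belonged to genes with fewer reads. From the lowest to the highest range, the median log2 ratio of the matched genes was 0.51, -0.13 and 0.18. For all genes it was -0.031, -0.015 and 0.073.

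**Figure D2:**
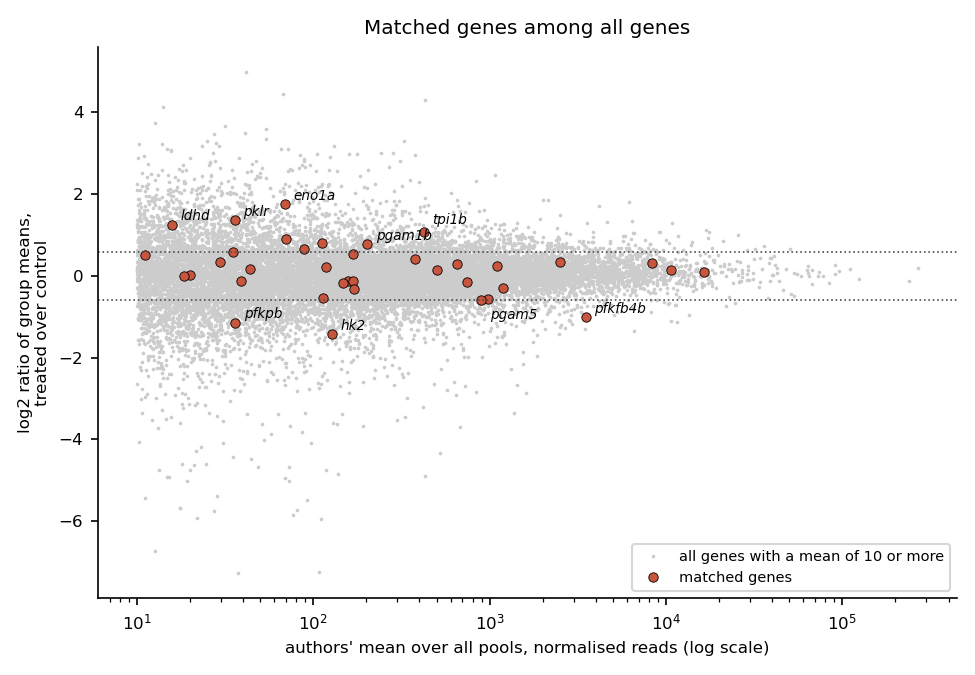
Log2 ratio of group means, treated over control, against the mean over all pools (log scale) for all genes with a mean of 10 or more (grey) and 37 matched genes (red), with dotted lines at 1.5-fold. The matched genes past the lines are mostly of low or middle level, apart from pfkfb4b at a mean of 3504.

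Taken by reaction, the summed reads were compared for 9 steps from hexokinase to pyruvate kinase, leaving out aldolase. Those of 8 were higher in treated than in control embryos and those of 1, hexokinase with glucokinase, were lower. The sums stood at 2.08 times control for triosephosphate isomerase, 1.84 for pyruvate kinase, 1.57 for phosphoglycerate kinase, 1.43 for glucose-6-phosphate isomerase, 1.32 for enolase, 1.298 for phosphoglycerate mutase, 1.22 for phosphofructokinase, 1.17 for glyceraldehyde-3-phosphate dehydrogenase and 0.892 for hexokinase with glucokinase. A division of the pathway after aldolase was chosen after the values were seen. In the 4 steps from hexokinase to aldolase, 1 of 8 matched genes was higher, 2 were lower and 6 had a ratio above 1. This count leaves out the unmatched hexokinase hkdc1, described below, which was higher past 1.5-fold (5935 in control, 8989 in treated). In the 6 steps from triosephosphate isomerase to pyruvate kinase, 6 of 11 genes were higher, 0 were lower and 10 had a ratio above 1. Of all genes, 14.1% were higher and 15.5% lower. In the range of means from 10 to 100, which holds eno1a, pklr and pgk1, 21.2% of all genes were higher. The share of all genes with a ratio above 1 was not counted.

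**Figure D3:**
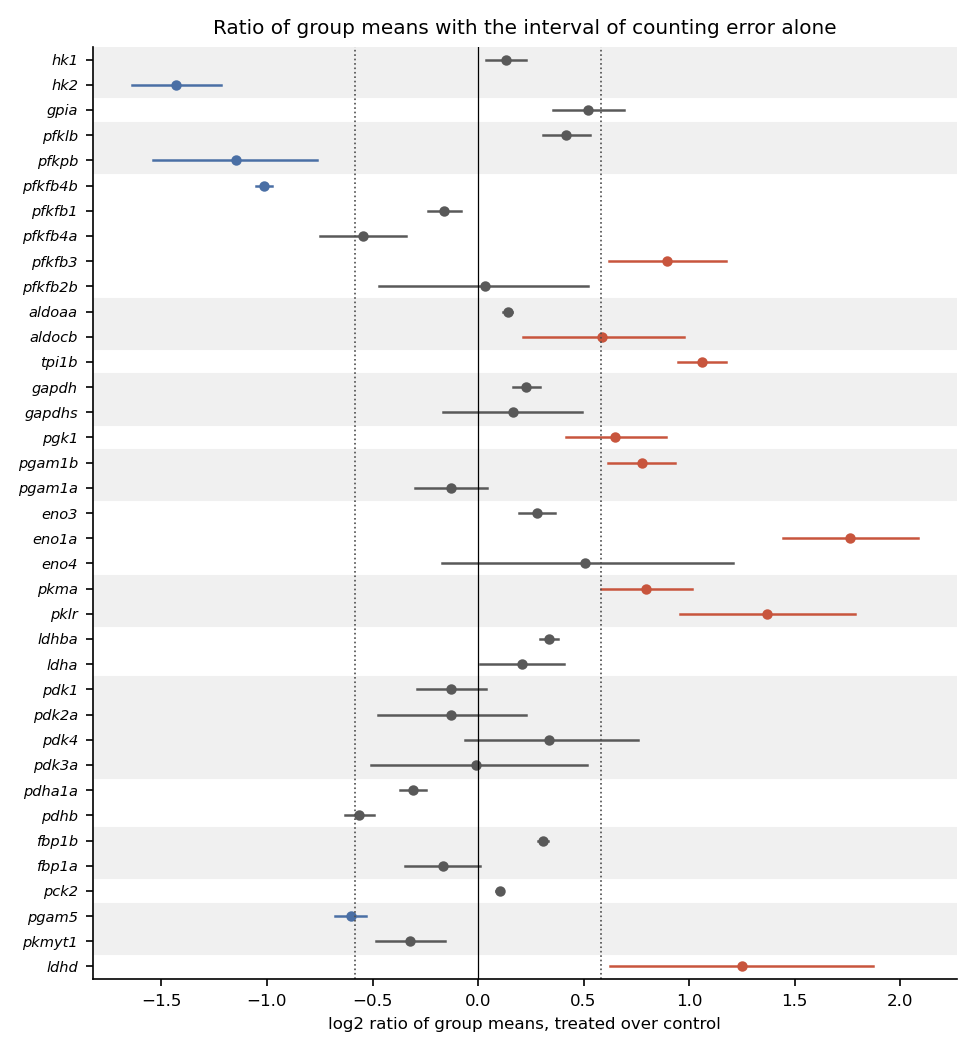
Log2 ratio of group means, treated over control, for 37 matched genes with a mean of 10 or more, in pathway order, with lines for the 95% interval of counting error alone and dotted lines at 1.5-fold. Red marks the 9 genes higher and blue the 4 genes lower past 1.5-fold, with eno1a furthest to the right and hk2 furthest to the left.

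At the entry of glucose, hk2 was lower in treated embryos and hk1 was not. Hexokinases phosphorylate glucose and so hold it in the cell. In mammals hk2 is the form of insulin-responsive muscle and of many tumours, while hk1 is found in most tissues. The mean of hk2 (ENSDARG00000101482) was 186 in control and 69.1 in treated embryos, 2.69-fold lower (interval 2.33 to 3.12). The mean of hk1 (ENSDARG00000039452) was 481 in control and 527 in treated embryos, a ratio of 1.09 (1.03 to 1.17). Among hk1, hk2 and gck, the share of hk2 in the reads was 27.8% in control and 11.6% in treated embryos. Glucokinase, gck, the glucose sensor of mammalian liver and pancreas, was near the floor at 2.47 and 1.45.

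A further hexokinase that the symbol match does not take, hkdc1, held most hexokinase reads of these embryos. Its mean was 5935 in control and 8989 in treated embryos, 1.51-fold higher (1.49 to 1.54), and it was named here after its values had been seen. Together with hkdc1 the hexokinase sum was 6605 in control and 9587 in treated embryos, 1.45 times control, of which hkdc1 made up 89.9% and 93.8% and hk2 2.82% and 0.721%. The direction of the summed hexokinase reads therefore depends on whether hkdc1 is counted.

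Glucose-6-phosphate isomerase, which turns glucose 6-phosphate into fructose 6-phosphate, was read almost wholly from gpia. The mean of gpia was 138 in control and 199 in treated embryos, a ratio of 1.44 (1.28 to 1.62) that falls just short of 1.5-fold. Its duplicate gpib stood at 3.06 and 3.28.

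Phosphofructokinase makes fructose 1,6-bisphosphate and is the main control point of the pathway. Of its 6 genes, only the liver-type pfklb and the platelet-type pfkpb reached a mean of 10, and their ratios lay on opposite sides of 1. The mean of pfklb (ENSDARG00000099755) was 321 in control and 430 in treated embryos, a ratio of 1.34 (1.24 to 1.45). The mean of pfkpb (ENSDARG00000012801) was 49.8 in control and 22.5 in treated embryos, 2.21-fold lower (1.70 to 2.90). Thus pfkpb gave 12.9% of the phosphofructokinase reads in control and 4.80% in treated embryos, and pfklb gave 83.3% and 91.6%. The muscle-type pfkma and pfkmb and the duplicates pfkla and pfkpa lay between 1.21 and 6.15 in control embryos.

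The PFKFB enzymes carry a kinase and a phosphatase in 1 protein and set the level of fructose 2,6-bisphosphate, an activator of phosphofructokinase. The kinase to phosphatase balance differs among them, and in mammals the PFKFB3 form is strongly on the kinase side. In these embryos the reads were mostly those of pfkfb4b, which was lower in treated embryos, while pfkfb3 was higher. The mean of pfkfb4b (ENSDARG00000029075) was 4686 in control and 2322 in treated embryos, 2.02-fold lower (1.97 to 2.07). The mean of pfkfb3 (ENSDARG00000001953) was 48.8 in control and 90.9 in treated embryos, 1.86-fold higher (1.54 to 2.26). The duplicate pfkfb4a pointed the same way as pfkfb4b at 134 and 91.8, 1.46-fold lower (1.27 to 1.68). The liver-type pfkfb1 was close to level at 789 and 705, 1.12-fold lower (1.06 to 1.18), and the interval of pfkfb2b, at 19.7 and 20.1, held 1. The PFKFB sum was 5684 in control and 3235 in treated embryos, 0.569 times control, and the share of pfkfb4b in it was 82.4% and 71.8%.

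Aldolase splits fructose 1,6-bisphosphate into a pair of triose phosphates. In mammals aldolase A is the muscle form and aldolase C the brain form. The mean of aldoaa was 10123 in control and 11153 in treated embryos, a ratio of 1.102 (1.09 to 1.12). The scarce aldocb (ENSDARG00000019702) passed the threshold by the narrowest margin of all, with 27.9 in control and 41.9 in treated embryos (1.503-fold, 1.16 to 1.97). The duplicates aldoab and aldoca lay at 7.11 and 2.03 in control and 6.93 and 3.27 in treated embryos.

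The first enzyme after aldolase, triosephosphate isomerase, interconverts the pair of triose phosphates. Its main gene tpi1b (ENSDARG00000040988) was at 275 in control and 573 in treated embryos, 2.08-fold higher (1.93 to 2.25), and had the highest ratio of all matched genes with a mean of 100 or more. The duplicate tpi1a stood at 3.94 and 6.39. Glyceraldehyde-3-phosphate dehydrogenase, the step that makes NADH and a gene often used as a reference in expression work, had a ratio near 1: gapdh was at 1019 and 1193, a ratio of 1.17 (1.12 to 1.22). Its paralog gapdhs, whose mammalian counterpart is the sperm form, was at 41.4 and 46.5, with an interval that held 1. Phosphoglycerate kinase, the first step that yields ATP, was read from pgk1 (ENSDARG00000054191), with 69.3 in control and 109 in treated embryos (1.57-fold higher, 1.34 to 1.86).

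Phosphoglycerate mutase moves the phosphate of 3-phosphoglycerate to the neighbouring carbon. The fish duplicates pgam1a and pgam1b had similar reads in control embryos and unequal reads in treated embryos. The mean of pgam1b (ENSDARG00000014068) was 150 in control and 256 in treated embryos, 1.71-fold higher (1.53 to 1.91). The mean of pgam1a was 164 in control and 151 in treated embryos, and its interval held 1 (0.813 to 1.03). The share of pgam1b in the mutase reads was 47.5% in control and 62.6% in treated embryos. The muscle-type pgam2 stood at 1.28 and 2.62.

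Enolase makes phosphoenolpyruvate, and its gene eno1a had the highest ratio of all matched genes with a mean of 10 or more. In mammals enolase 1 is the widespread form, enolase 2 the neuronal form and enolase 3 the muscle form. The mean of eno1a (ENSDARG00000022456) was 31.6 in control and 107 in treated embryos, 3.39-fold higher (2.73 to 4.24). The most abundant enolase gene in either group was eno3, with 593 in control and 719 in treated embryos, a ratio of 1.21 (1.15 to 1.29). The share of eno1a in the enolase reads was 4.92% in control and 12.7% in treated embryos. The duplicate eno1b stood at 6.65 and 5.84, the neuronal eno2 at 2.87 and 2.09, and the distant relative eno4 at 9.17 and 13.0 with an interval that held 1.

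Pyruvate kinase completes the pathway and yields its last ATP, and both of its genes with a mean of 10 or more were higher in treated embryos. In mammals PKLR is the liver and red cell gene and PKM the gene of muscle and most other tissues. The mean of pklr (ENSDARG00000042010) was 20.1 in control and 51.8 in treated embryos, 2.58-fold higher (1.94 to 3.45). The mean of pkma (ENSDARG00000099730) was 81.6 in control and 141 in treated embryos, 1.73-fold higher (1.4996 to 2.02). The duplicate pkmb was level at 7.96 and 7.94. The share of pklr in the pyruvate kinase reads was 18.3% in control and 25.8% in treated embryos.

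Lactate dehydrogenase converts pyruvate and lactate into each other, and its reads came almost wholly from ldhba, the heart-type subunit. The mean of ldhba was 2218 in control and 2800 in treated embryos, a ratio of 1.26 (1.23 to 1.301). The muscle-type ldha was at 109 and 126, a ratio of 1.15 (1.01 to 1.33). The duplicate ldhbb, just under the minimum mean, stood at 4.24 and 14.4, a ratio of 3.39 (1.84 to 6.51). The mitochondrial D-lactate dehydrogenase ldhd (ENSDARG00000038845), which acts on the mirror form of lactate, was at 9.34 and 22.2, 2.38-fold higher (1.54 to 3.66).

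Pyruvate enters mitochondrial oxidation through the pyruvate dehydrogenase complex, whose E1 part is made of the pdha1 and pdhb subunits and is switched off by the kinases pdk1 to pdk4. Both E1 genes were lower in treated embryos, within 1.5-fold. The mean of pdhb was 1165 in control and 789 in treated embryos, 1.48-fold lower (1.41 to 1.55), and that of pdha1a was 1313 and 1060, 1.24-fold lower (1.19 to 1.29). Genes for other parts of the complex had ratios above 1 within 1.5-fold: dlat (1101 and 1172), dldh (449 and 593) and pdhx (171 and 198). The kinase genes pdk1, pdk2a, pdk3a and pdk4 all had intervals that held 1. The means of pdk1, the most abundant, were 175 and 161, and the kinase sum was 0.959 times control.

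The gluconeogenic genes pck2 and fbp1b were among the most abundant of the matched genes and stayed within 1.5-fold. Phosphoenolpyruvate carboxykinase was read from the mitochondrial form pck2, with 15793 in control and 16972 in treated embryos (ratio 1.07, 1.06 to 1.09), while the cytosolic pck1 stood at 7.19 and 4.54. Fructose-1,6-bisphosphatase, which reverses the phosphofructokinase step, was read from fbp1b at 7455 and 9237, a ratio of 1.24 (1.22 to 1.26). Its paralog fbp1a was at 155 and 138 with an interval that held 1, and the muscle-type fbp2 was at 1.59 and 0.669.

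Of the genes taken by their first letters only, pgam5 (ENSDARG00000035608), a phosphatase of the mitochondrial membrane and not a glycolytic mutase, was lower past 1.5-fold. Its means were 1084 in control and 713 in treated embryos, 1.52-fold lower (1.45 to 1.60). The kinase pkmyt1, which holds back entry into mitosis, was at 189 and 151, 1.25-fold lower (1.11 to 1.40). Without these genes, 9 of 36 genes were higher and 3 were lower, beside 14.1% and 15.5% of all genes. The 36 still include ldhd.

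Genes for the same enzyme were then set against each other, because the difference of their log2 ratios does not depend on transcript length or on the scaling between the groups. Among genes with a mean of 10 or more there were 30 pairs within 12 enzymes, and in 17 of them the counting intervals of the paired ratios did not overlap. The pair furthest apart was pfkfb3 and pfkfb4b, with a difference of 1.91 on the log2 scale. It was followed by pfklb and pfkpb (1.56), hk1 and hk2 (1.56) and eno1a and eno3 (1.48), and the duplicates pgam1b and pgam1a differed by 0.90. By contrast, gapdh and gapdhs differed by 0.06, ldhba and ldha by 0.13 and pdk2a and pdk1 by less than 0.01, each within overlapping intervals. The number of pairs rests on counting error alone and was not set beside pairs of other genes. Reads of near-identical duplicates could have been divided between them by the counting.

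**Figure D4:**
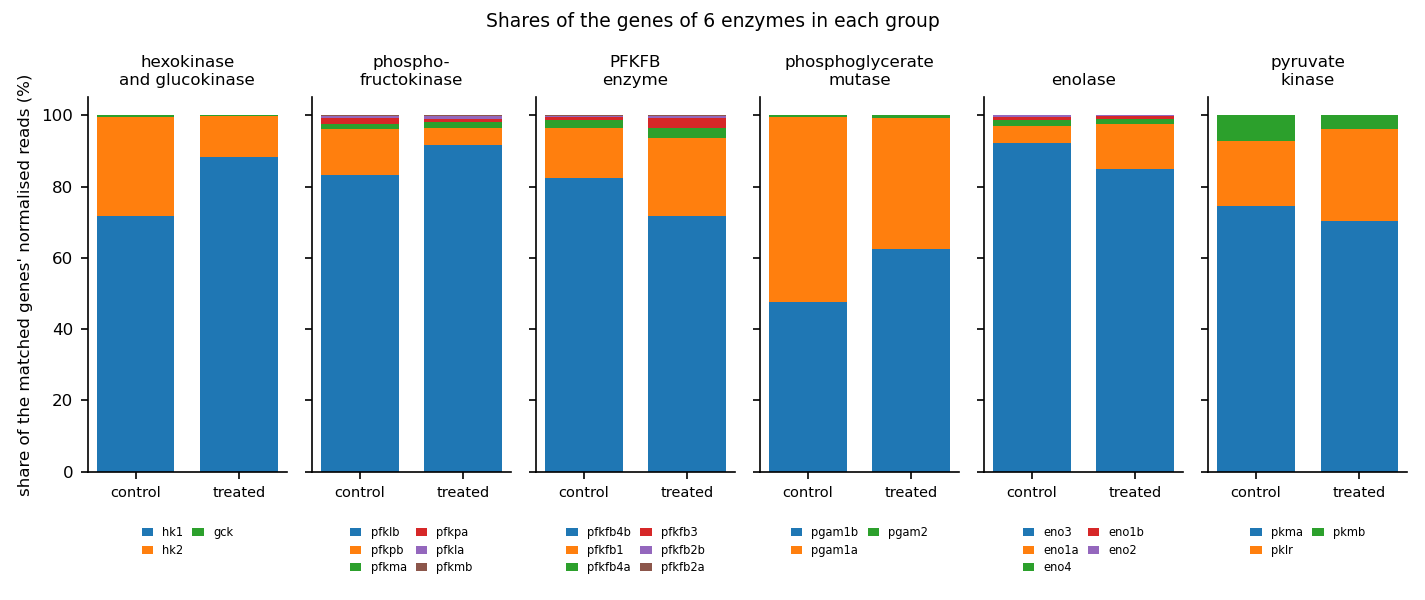
Share of the normalised reads (%) taken by each gene of 6 enzymes in control and treated embryos, as stacked bars that sum to the matched genes of the enzyme, so that the hexokinase bar leaves out hkdc1. The share of hk2 went from 27.8% in control to 11.6% in treated embryos, that of pgam1b from 47.5% to 62.6% and that of eno1a from 4.92% to 12.7%, and these shares also depend on transcript length.

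The 20 genes under a mean of 10 were read too rarely for a ratio in most cases. Their ratios ran from 0.293 for pdha1b (0.733 and 0.215) to 3.39 for ldhbb, and the counting interval held 1 for 19 of them, with ldhbb as the exception. Many are the second duplicate of a gene whose partner was abundant, such as aldoab beside aldoaa and tpi1a beside tpi1b. The cytosolic form pck1 was likewise scarce beside the mitochondrial form pck2. In the RefSeq annotation, eno2 and tpi1a lie next to each other, as do fbp2 and fbp1a, with 0 protein-coding genes between, and of these only fbp1a passed a mean of 10.

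Lists of genes around the pathway were counted in the same way, as counts beside the 14.1% and 15.5% of all genes. Of the carriers of hexoses and lactate, 6 had a mean of 10 or more, 2 were higher and 0 were lower. The lactate carrier slc16a3 was at 134 in control and 247 in treated embryos (1.84-fold), and the hexose carrier slc2a12 was at 1272 and 2065 (1.62-fold). The most abundant carrier, slc16a1b, was at 7055 and 8638, a ratio of 1.22.

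Among 18 other genes of glycolysis and hexose phosphates, 4 were higher and 5 lower. The phosphoglucomutase pgm1, which links glucose 1-phosphate and glucose 6-phosphate, was at 63.2 and 146 (2.31-fold higher), and tkfc, which phosphorylates triose sugars, at 57.2 and 101 (1.76-fold higher). Lower genes included pgm2 at 24.8 and 13.2 (1.87-fold) and pgm3 at 91.0 and 56.1 (1.62-fold). In the pentose phosphate pathway, which branches off at glucose 6-phosphate, 0 of 10 genes were higher and 2 were lower, pgls (50.1 and 23.8, 2.10-fold) and h6pd (592 and 392, 1.51-fold).

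Of 11 partners of pyruvate oxidation, 1 was higher and 1 was lower. The mitochondrial malic enzyme me2, which makes pyruvate from malate, was at 77.4 and 216 (2.79-fold higher), and the pyruvate carboxylase gene pcxb was at 105 and 65.9 (1.59-fold lower). The more abundant paralog pcxa pointed the other way from pcxb within 1.5-fold, at 282 and 328 (ratio 1.17, 1.07 to 1.27). Of 21 genes of the tricarboxylic acid cycle, 3 were higher, among them suclg2 (321 and 608, 1.89-fold) and dlst (569 and 971, 1.71-fold), and 1 was lower, idh3a (564 and 368, 1.53-fold). The median log2 ratio of the cycle genes was 0.02.

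Of 21 regulators of glycolysis, 3 were higher and 3 were lower. Furthest up were egln3 with 58.2 and 352 (6.04-fold) and egln2 with 24.7 and 77.4 (3.14-fold). Both encode prolyl hydroxylases, which mark hypoxia-inducible factors for breakdown. Their relative egln1b was level at 350 and 330, a ratio of 0.944 (0.872 to 1.02). The furthest down were ppargc1a, a coactivator of mitochondrial genes (63.6 and 27.2, 2.34-fold lower), and prkab1b, a subunit of the energy sensor AMPK (334 and 167, 2.00-fold lower). The AMPK subunit gene prkaa1 pointed the other way within 1.5-fold, at 719 and 1070 (ratio 1.49, 1.41 to 1.57). The interval of prkab1a, at 29.1 and 22.8, held 1.

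**Figure D5:**
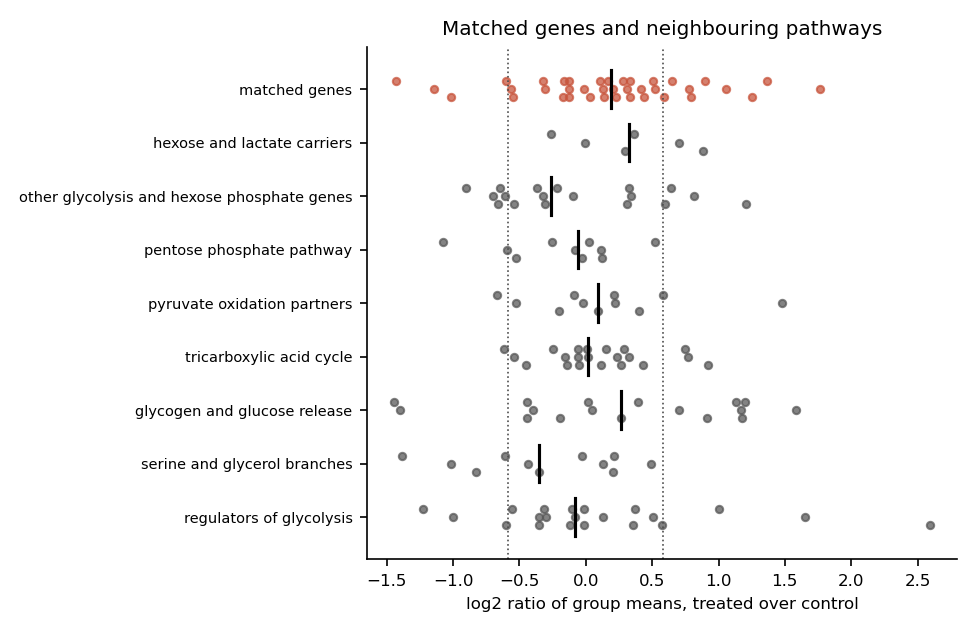
Log2 ratio of group means, treated over control, for the 38 matched genes (red) and for genes of 8 surrounding lists (grey) with a mean of 10 or more, with the median of each as a black bar and dotted lines at 1.5-fold. The medians lie within 1.5-fold for all lists, at 0.19 for the matched genes and 0.02 for the tricarboxylic acid cycle, and the gene furthest to the right is egln3.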

How the data were processed

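Stranded mRNA libraries were made from 4 control and 4 treated pools of 75 embryos. Per the study's methods, the authors ran nf-core's rnaseq pipeline against the GRCz11 genome and an Ensembl annotation to count reads. The deposited columns used here are signal values: the authors scaled counts with DESeq2 size factors and took their mean for each group and for all 8 pools. Columns with the authors' own fold change, its standard error, the statistic, the p-value and the adjusted p-value were not used. With no values per pool, the planned tests could not be run.

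Genes were matched by symbol, and all 58 identifiers were found in the gene name table, 32 with the same symbol apart from case. The ratio of the treated to the control mean was taken with no pseudocount for genes with a mean of 10 or more, leaving out 2 genes with a group at 0, and called past 1.5-fold. Relative depth was read from the smallest steps of the means. The interval used the lowest relative depth of each group, and was tried on simulated counts without spread between pools. That trial cannot show how the interval holds where pools vary beyond counting. Of 186 listed context symbols (dld, a Notch ligand in zebrafish, was removed after its values were seen), 174 were found by symbol, 4 by synonym and 8 not. Any matched gene could be named. Context lists were named by counts and by the 2 genes furthest above and below among those called. Exceptions chosen after seeing values included hkdc1, slc16a1b, egln1b, prkaa1, prkab1a, gpd1b, gpd1c and gpd1l. Further exceptions were dlat, dldh, pdhx, pcxa, gys1, gbe1a, gbe1b, pygb, pygmb, agla, snap25a, snap25b, syt1a and gap43. Among the gastrula markers they were cyt1, chrd, sox17, krt4, vox, bmp2b and gsc. Scripts ran in Python 3.11.15 with matplotlib 3.10.9, scipy 1.17.1, numpy 2.4.6 and pandas 2.3.3. The members and lists were chosen with earlier results of these data known. Sequences were not used here. Of the matched genes, 1 is included in the counts and is not reported by name here.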

Additional observations from a re-analysis of the deposited data

How the results depend on the processing

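Alternatives were other folds, minimum means, pseudocounts and scalings, rows summed by symbol, and an interval wholly past 1.5-fold. The count of higher genes was 4 at a fold of 2, 15 with no minimum mean and 3 at a minimum mean of 100, against 9. The count of lower genes was 9 with no minimum mean, against 4. All other counts stayed within 1.5 times. At a minimum mean of 100, which left 25 genes, the count of lower genes was 3, equal to that of higher genes. Of all genes, 10.3% were higher and 12.6% lower at means from 100 to 1000. At 1000 or more, 8.05% were higher and 5.06% lower. Shares of all genes under the other alternatives were not counted, so those counts do not set the matched genes apart. Scaled to the group sums, 8 genes were higher and 6 lower. With the whole interval past 1.5-fold, 6 genes were higher and 3 lower, and aldocb, pgk1, pkma and pgam5 were not among them. Under other pseudocounts and scalings the 13 called genes kept their direction, with aldocb lost under a pseudocount of 1, a pseudocount of 10, scaling to the group sums and centring, and pgk1 lost under a pseudocount of 10. The median log2 ratio of the matched genes ran from 0.12 (group sums) to 0.19. Centring moved all log2 ratios by 0.02. No paired analysis was possible because the table holds group means and no values per pool, and for the same reason leaving out a pool was not run. The planned search for promoter motifs was not run. The part of pool-to-pool variation in any ratio is not known.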

Other observations

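The list of glycogen and glucose release, not described above, held 17 genes with a mean of 10 or more. Of these, 7 were higher and 2 were lower in treated embryos past 1.5-fold, beside 14.1% higher and 15.5% lower of all genes. Among all genes with a mean from 10 to 100, 21.2% were higher. The liver-type glycogen phosphorylase pygl, which releases glucose 1-phosphate from glycogen, was at 165 in control and 497 in treated embryos, 3.00-fold higher (counting interval 2.73 to 3.31). The liver-type glycogen synthase gys2 was near the minimum mean at 6.71 and 15.4, 2.29-fold higher (1.38 to 3.91). The lower genes were ugp2b, which makes UDP-glucose (130.5 and 47.9, 2.72-fold), and slc37a4a, a carrier of glucose 6-phosphate (40.3 and 15.2, 2.64-fold). Some genes of the breakdown of glycogen and some of its making were thus higher. Those of the making were scarce, with gys1 at 9.38 and 17.7, gbe1a at 13.7 and 30.1 and gbe1b at 6.24 and 14.0 beside gys2. The more abundant ugp2b was lower. The median log2 ratio of the list was 0.27.

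In the serine and glycerol branches, 0 of 11 genes were higher and 4 were lower, beside 14.1% higher and 15.5% lower of all genes. These branches leave glycolysis at its triose phosphates and 3-phosphoglycerate. Some glycerol-3-phosphate dehydrogenase genes stood lowest, with the mitochondrial gpd2 at 47.1 and 18.0 (2.61-fold lower) and the cytosolic gpd1a at 54.1 and 26.7 (2.03-fold lower). The more abundant gpd1b, named after its values were seen, was at 1173 and 661 (1.78-fold lower, counting interval 1.69 to 1.87). Others of this family stayed within 1.5-fold, gpd1c at 363 and 269 (1.35-fold lower) and gpd1l at 945 and 929 (ratio 0.983, 0.936 to 1.03). The part of stage in these values was not tested.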
